A study of Danio rerio with 16 samples.

Results

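The core genes of the PI3K, AKT and mTOR pathway were followed in zebrafish embryos after an injection of insulin. They were chosen by name: 31 zebrafish symbols, from the adaptors at the insulin receptor to the regulators of translation, were looked for in the gene column of the count tables. Of these, 25 symbols were found, in 26 rows of the 31452 genes in each table. The symbol akt3a stood on 2 rows of chromosome 13, and one of them, with 1 to 17 reads per library, did not pass the filter on low counts, so that 25 members were tested. The other 6 symbols, among them pik3ca, akt1, gsk3ba, gsk3bb and rptor, had no row of that spelling, and rows under a related symbol are described separately, since they are no members.

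All embryos were of the ABTL background and 4 days post fertilization. Each embryo received 1 nl into the caudal aorta through a glass capillary, either recombinant insulin of human sequence or plain PBS, and RNA was taken from whole embryos 4 or 0.5 hours post injection (hpi). The 4 groups were insulin at 4 hpi, PBS at 4 hpi, insulin at 0.5 hpi and PBS at 0.5 hpi, with 4 libraries each and 10 embryos pooled per library. The dose of insulin is not stated in the labels, and no uninjected embryos were analysed here. Whether the 4 pools of a group came from separate clutches or injection days is not given either, so p-values measure the spread between these pools.

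Insulin bound to its receptor recruits adaptors and PI3-kinase, whose lipid product brings the kinases PDK1 and AKT to the membrane. AKT then restrains GSK3 and the TSC complex, which frees the small GTPase RHEB to activate mTORC1, and mTORC1 drives protein synthesis through S6 kinase and the 4E-BP proteins. These roles are known mainly from mammals. Signalling along this chain runs by phosphorylation, which RNA counts do not measure, and only the abundance of the members' transcripts is described here.

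Libraries held 6535173 to 9177091 reads on genes with insulin at 4 hpi, 7212883 to 9595280 with PBS at 4 hpi, 7931641 to 8643202 with insulin at 0.5 hpi and 7584357 to 9628705 with PBS at 0.5 hpi. In 4 libraries the genes wdr90 and si:dkey-15h8.1 were under 10 CPM (reads scaled to library size), against higher levels in the other 12. These libraries were insulin replicate 1 at 4 hpi, insulin replicates 1 and 2 at 0.5 hpi and PBS replicate 1 at 0.5 hpi, and results are given with and without them. PBS replicates 2 and 3 at 0.5 hpi, both from lane 2, had the lowest median chi-square per gene of all pairs within a group, 0.524, against 0.718 to 3.64 in the 23 other pairs. Their chi-square per degree of freedom, 2.74, was within the range of the other pairs, 2.40 to 26.8. They were kept as separate libraries, and whether they are 1 library was not settled. Markers of red blood cells, photoreceptors and lens, liver, skeletal muscle, skin, neurons, and neutrophils and macrophages were detected in every group. File headers name a sequencing lane for 9 libraries, and at 4 hpi lane 5 held 2 insulin and 3 PBS libraries. Those insulin libraries were replicate 1, which stands apart, and replicate 3. The named lanes were 5 and 7 at 4 hpi and 2 and 6 at 0.5 hpi, so no named lane held both times. Among these libraries lane and time cannot be told apart in comparisons between the times, including the difference between the insulin effects.

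**Figure D1:**
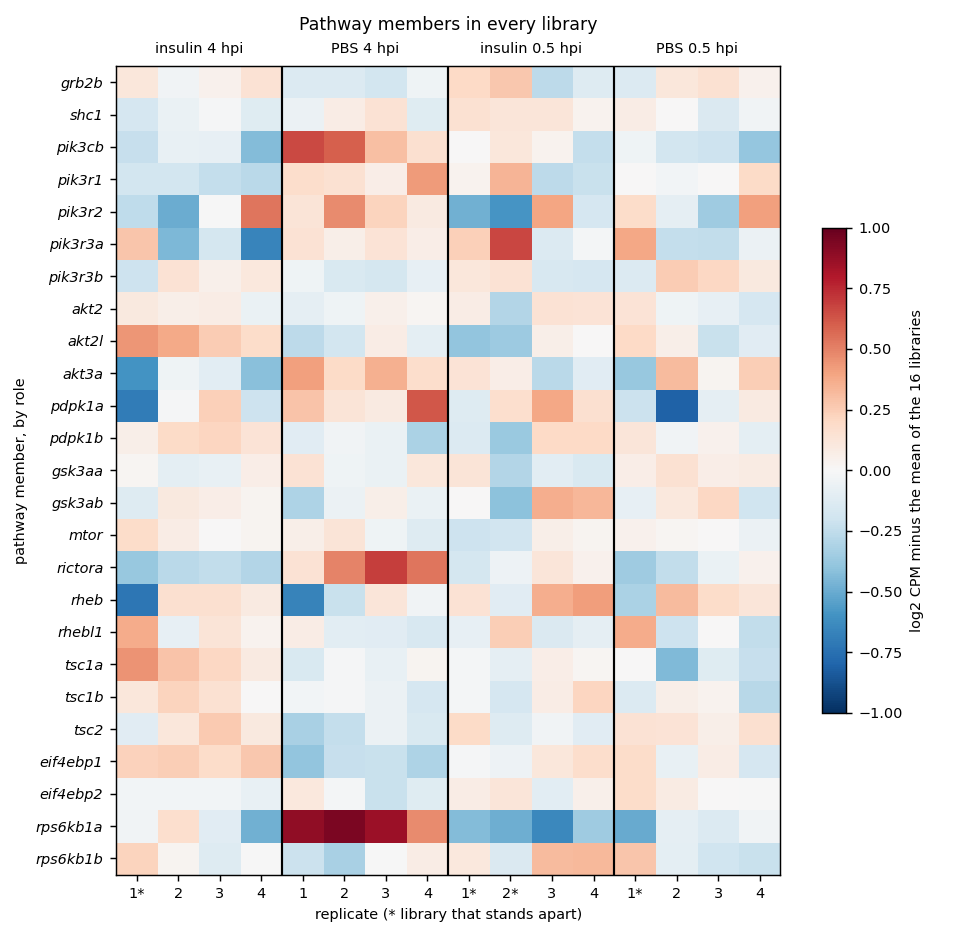
Level of each of the 25 tested pathway members (rows, ordered by role) in each of the 16 libraries (columns, grouped by injection and time, numbered by replicate), as log2 CPM minus the mean of that member over the 16 libraries. The 4 PBS libraries at 4 hpi are the reddest for rps6kb1a, rictora and pik3cb, and asterisks mark the 4 libraries that stand apart.

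At 4 hpi insulin and PBS embryos differed in 9 of the 25 members, 4 higher and 5 lower with insulin. The lower transcripts were those of the S6 kinase gene rps6kb1a, the mTORC2 gene rictora, the PI3-kinase genes pik3cb and pik3r1, and akt3a. The higher ones were those of eif4ebp1, akt2l, tsc1a and tsc2. A gene was called when its adjusted p was under 0.05 over all genes tested. The 9 members were 36% of those tested, against 28.6% of all 21650 genes called in this comparison, a share near the background that is no result about the pathway. Over all genes 14% were called higher and 14.6% lower. The members' changes ran between -0.89 and 0.52 on the log2 scale with a median of 0.07, against a median of 0.01 over all genes. In 11 members the insulin and PBS libraries did not overlap, 6 with insulin higher and 5 with insulin lower, while 16.3% and 17.2% of all genes were separated in these directions. In whole embryos fewer cells of a type and less RNA per cell cannot be told apart. Without the 4 libraries that stand apart 12 of 25 members were called, among them all 9, while the share of all genes called was then 35.2%.

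**Figure D2:**
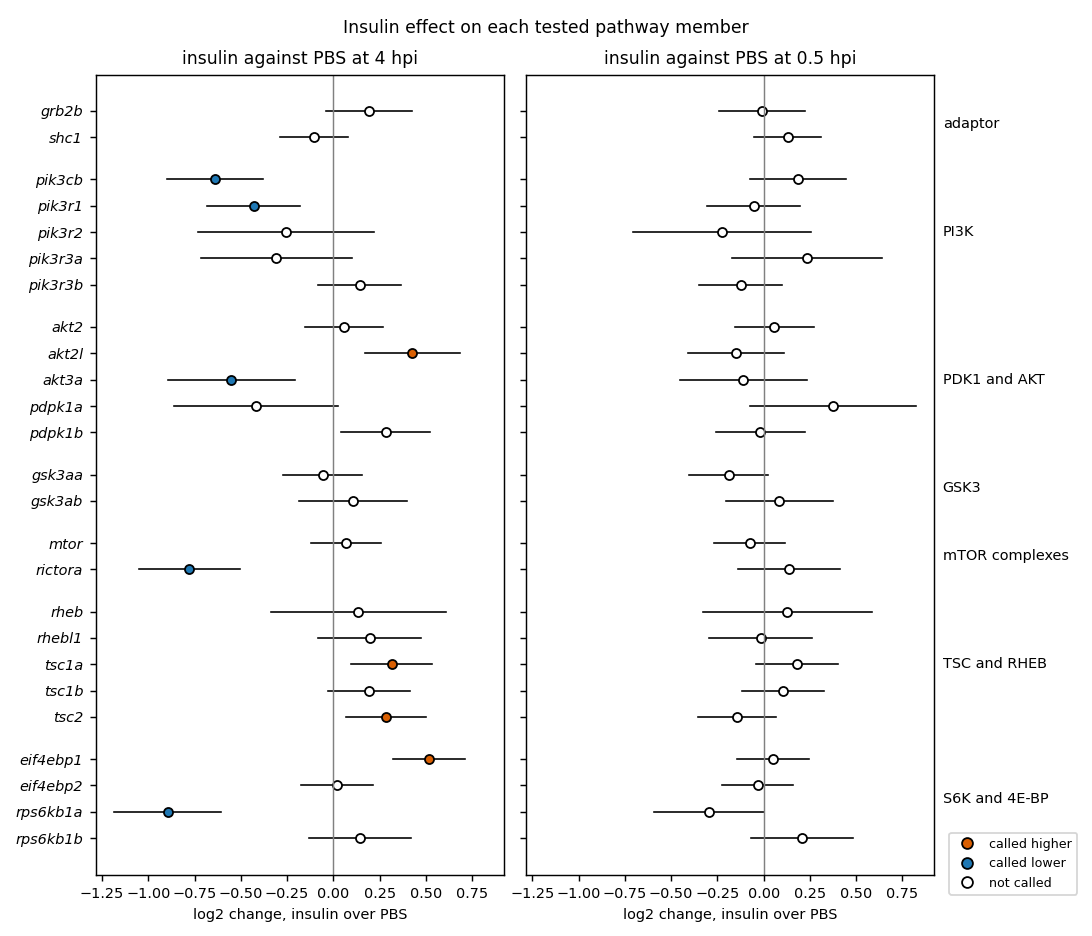
Log2 change of insulin over PBS for each tested member, by role, at 4 hpi (left) and 0.5 hpi (right), with 95% intervals of the fit as bars and filled points for members called. At 4 hpi 4 members are filled as higher and 5 as lower, and at 0.5 hpi no point is filled.

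Neither adaptor differed between insulin and PBS at 4 hpi beyond the threshold. The transcript of shc1, an adaptor that docks on activated receptors and had the higher CPM of these adaptors, was at 64.0, 68.6, 71.3 and 66.0 CPM with insulin and at 69.2, 75.4, 79.4 and 66.0 CPM with PBS. The groups overlapped, with a log2 change of -0.10 (95% interval -0.29 to 0.08). The transcript of grb2b, which links receptors to the Ras branch, averaged 57.9 ± 3.19 CPM with insulin and 50.6 ± 2.05 CPM with PBS (SD, n = 4 each). Every insulin library lay above every PBS library for grb2b, but the change of 0.19 (SE 0.11) had an adjusted p of 0.196.

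Of the 5 PI3-kinase members, pik3cb and pik3r1 were lower with insulin. The gene pik3cb (chromosome 15) encodes a catalytic subunit, and its transcript stood at 28.0, 31.3, 31.0 and 24.4 CPM with insulin, against 52.0, 49.7, 40.5 and 36.8 CPM with PBS. The highest insulin library was below the lowest PBS library, and the log2 change was -0.64 (SE 0.12, adjusted p = 0.000979). The gene pik3r1 (chromosome 5) encodes the main regulatory subunit, which binds phosphorylated IRS proteins, and it had the highest CPM of the PI3-kinase members. It was at 186, 186, 179.7 and 175 CPM with insulin, against 239, 235, 221 and 285 CPM with PBS. The groups did not overlap, and pik3r1 was lower with insulin than with PBS by 0.43 on the log2 scale (SE 0.12, adjusted p = 0.0122). Among the libraries of lane 5 alone, 2 with insulin and 3 with PBS, the change was -0.53 for pik3cb (adjusted p = 0.0608) and -0.44 for pik3r1 (adjusted p = 0.0779).

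The regulatory subunit genes pik3r2, pik3r3a and pik3r3b were not called at 4 hpi, with log2 changes of -0.26, -0.31 and 0.14. Without the 4 libraries that stand apart pik3r3a was at -0.50 (adjusted p = 0.000312) and pik3r3b at 0.22 (adjusted p = 0.0223), and both were then called. In pik3r3a the level moved with those libraries: in each of the 3 groups that hold both kinds they were the highest, at 51.5 to 69.5 CPM, against 27.7 to 48.3 CPM in the other 12 libraries. At 4 hpi pik3r3a was at 53.1 CPM in insulin replicate 1 and at 27.7 to 38.8 CPM in the other insulin libraries, against 45.6 to 48.3 CPM with PBS. Insulin replicate 1 thus lay above the PBS range of pik3r3a and the other insulin libraries below it.

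The AKT genes moved in different directions at 4 hpi. The transcript of akt2l (chromosome 10), an akt2-like kinase gene, was at 48.0, 46.0, 42.2 and 40.2 CPM with insulin, against 29.5, 31.2, 37.3 and 33.2 CPM with PBS. All insulin libraries were higher than all PBS libraries, and the log2 change was 0.43 (SE 0.12, adjusted p = 0.0144). Without PBS replicate 1 at 4 hpi the adjusted p of akt2l was 0.0581.

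The tested row of akt3a (chromosome 13), an AKT family gene, was at 7.11, 10.4, 9.99 and 8.03 CPM with insulin, against 14.2, 12.2, 13.7 and 12.1 CPM with PBS. The groups did not overlap, and the log2 change was -0.55 (SE 0.16, adjusted p = 0.0173). The call rested on 52 to 96 reads per insulin library, against 102 to 125 per PBS library. It was lost without insulin replicate 1 (adjusted p = 0.0639) and without insulin replicate 4 (adjusted p = 0.0506). The second akt3a row held too few reads to be tested, with 1 to 10 reads per insulin library, against 7 to 17 per PBS library.

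The transcript of akt2, the AKT gene with the highest CPM and the one tied to glucose uptake in mammals, was at 104, 101, 102 and 92.2 CPM with insulin, against 90.8, 93.7, 100.3 and 98.1 CPM with PBS. The groups overlapped, and the interval of the log2 change was -0.16 to 0.27. The genes pdpk1a and pdpk1b encode PDK1, which phosphorylates AKT. For pdpk1b all insulin libraries were above all PBS libraries, at 67.4 ± 3.20 CPM with insulin and 55.4 ± 4.73 CPM with PBS (SD, n = 4 each), with a change of 0.28 that missed the threshold (adjusted p = 0.0707). It was called without the 4 libraries that stand apart, at 0.32 (adjusted p = 0.00346). The low transcript of pdpk1a was at 3.62, 5.85, 6.93 and 5.10 CPM with insulin and at 7.18, 6.42, 6.27 and 9.04 CPM with PBS, with overlapping groups and a change of -0.42 (adjusted p = 0.141).

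The GSK3 members encode kinases that AKT inhibits, and neither was called at 4 hpi. The transcript of gsk3ab was at 92.9, 109, 106 and 104 CPM with insulin, against 82.3, 97.4, 106 and 97.1 CPM with PBS. The groups overlapped, and the interval of the log2 change was -0.19 to 0.40. For gsk3aa, at 29.1, 26.9, 27.3 and 30.1 CPM with insulin and 31.8, 27.8, 27.4 and 31.1 CPM with PBS, the interval was -0.27 to 0.15.

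The mTOR kinase transcript itself differed little. It was at 133, 123, 117 and 119 CPM with insulin, against 122, 128, 114 and 107 CPM with PBS. The groups of mtor overlapped, and the log2 change was 0.07 with an interval of -0.12 to 0.26 (SE 0.09). By contrast rictora (chromosome 5), whose product defines mTORC2, the complex that phosphorylates AKT, was at 11.7, 12.6, 12.8 and 12.4 CPM with insulin, against 16.8, 21.4, 24.4 and 22.0 CPM with PBS. Every insulin library was lower than every PBS library, and the insulin libraries were close together, with an SD of 0.485 CPM against 3.20 CPM with PBS. The transcript was lower with insulin than with PBS by 0.78 on the log2 scale (SE 0.13, adjusted p = 0.000261). In lane 5 alone rictora was at -0.89 (adjusted p = 0.0105).

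In the TSC and RHEB group 2 of 5 members were called, both higher with insulin. Their products, TSC1 and TSC2, form the complex that holds RHEB inactive. The transcript of tsc1a (chromosome 5) was at 44.4, 39.8, 37.6 and 34.6 CPM with insulin, against 29.3, 32.2, 30.9 and 33.2 CPM with PBS. These groups did not overlap, and the log2 change was 0.32 (SE 0.10, adjusted p = 0.0296). The transcript of tsc2 (chromosome 1) was at 31.6, 36.9, 40.9 and 36.6 CPM with insulin, against 27.3, 29.1, 32.8 and 30.8 CPM with PBS. Insulin replicate 1 lay within the PBS range, and the change was 0.28 (SE 0.10, adjusted p = 0.0433).

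Both TSC calls depended on single libraries. At 4 hpi the call of tsc1a was lost when insulin replicate 1 or 2, or any of PBS replicates 1 to 3, was left out, with adjusted p between 0.0556 and 0.0981 and changes between 0.25 and 0.33. The call of tsc2 was lost in 11 of the 16 fits that left out 1 library. At 4 hpi these were the fits that left out any of insulin replicates 2 to 4 (adjusted p = 0.0782 to 0.175) or any of PBS replicates 1 to 4 (adjusted p = 0.0534 to 0.163). At 0.5 hpi they left out insulin replicate 4 (adjusted p = 0.0685) or any of PBS replicates 2 to 4 (adjusted p = 0.0526 to 0.0541). With counts scaled by library totals alone neither was called, with an adjusted p of 0.0682 for tsc1a and 0.157 for tsc2.

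The other TSC and RHEB members were not called. For tsc1b all insulin libraries were above all PBS libraries, at 32.9 ± 2.06 CPM with insulin and 28.8 ± 1.36 CPM with PBS (SD, n = 4 each), with a change of 0.19 (adjusted p = 0.174). The transcript of rhebl1, a RHEB-like GTPase gene and the one of highest CPM in this group, was at 58.6, 42.9, 49.6 and 46.7 CPM with insulin, against 47.9, 42.3, 41.9 and 40.6 CPM with PBS. Its groups overlapped, and insulin replicate 1, which stands apart, was the highest. The GTPase gene rheb had 21 to 48 reads per insulin library, against 22 to 46 per PBS library, and a change of 0.14 with an interval of -0.34 to 0.61.

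The last step of the pathway held the members of smallest p in each direction at 4 hpi. The transcript of rps6kb1a (chromosome 10), one of the zebrafish genes for S6 kinase, which phosphorylates ribosomal protein S6, was at 26.5, 30.5, 25.2 and 19.5 CPM with insulin, against 50.4, 52.4, 49.4 and 37.7 CPM with PBS. The highest insulin library was below the lowest PBS library, and the level was 0.538 times that with PBS, a log2 change of -0.89 (SE 0.14, adjusted p = 0.000120). Its copy rps6kb1b (chromosome 15) did not move with it: it was at 57.0, 49.8, 44.6 and 48.7 CPM with insulin, against 42.0, 38.9, 48.7 and 51.3 CPM with PBS. The groups of rps6kb1b overlapped, with a change of 0.15 and an interval of -0.13 to 0.42. The difference between the copies was not tested, and how the authors treated reads shared by such copies is not stated in the labels.

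The transcript of eif4ebp1 (chromosome 21), whose product binds the cap-binding protein eIF4E and restrains translation until mTORC1 phosphorylates it, was at 86.4, 87.1, 83.4 and 88.8 CPM with insulin, against 56.0, 62.8, 63.0 and 59.6 CPM with PBS. The groups lay far apart, and the level was 1.43 times that with PBS, a log2 change of 0.52 (SE 0.09, adjusted p = 0.000478). Its relative eif4ebp2 was at 205, 205, 205 and 199 CPM with insulin, against 225, 206, 179 and 192 CPM with PBS. Those groups overlapped around the same level, and the interval of the log2 change was -0.17 to 0.21. In lane 5 alone rps6kb1a was at -0.86 (adjusted p = 0.0146) and eif4ebp1 at 0.45 (adjusted p = 0.0358), and with rictora these were the 3 members called there. Over all genes that fit called 2952, against 6193 with all libraries. Insulin replicate 1, which stands apart, was part of that fit. Further lane 5 values were 0.40 for akt2l (adjusted p = 0.0787) and -0.58 for akt3a (adjusted p = 0.0873). Those of tsc1a and tsc2 were 0.34 (adjusted p = 0.109) and 0.23 (adjusted p = 0.328). The lane 5 libraries are also part of the main fit. Where the groups do not overlap, a subset keeps the direction, so the direction in lane 5 is no separate evidence.

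**Figure D3:**
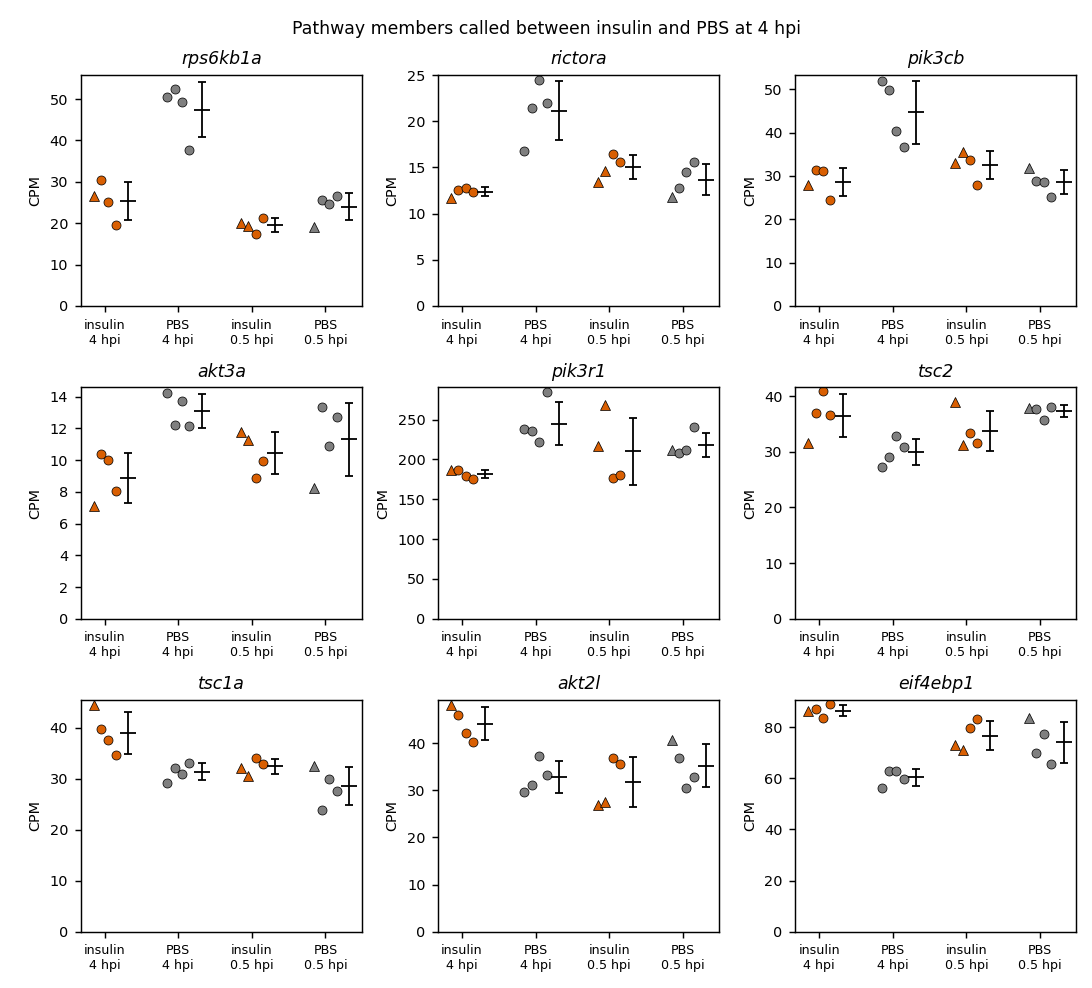
CPM of the 9 members called between insulin and PBS at 4 hpi, 1 panel each, with 1 point per library, triangles for the 4 libraries that stand apart, and bars for the mean and SD of 4 libraries. At 4 hpi the insulin points lie below all PBS points for rps6kb1a, rictora, pik3cb, akt3a and pik3r1, and above them for tsc1a, akt2l and eif4ebp1, while those of tsc2 overlap, and at 0.5 hpi the groups overlap in all 9 panels.

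At 0.5 hpi none of the 25 members was called between insulin and PBS, where 0.388% of all genes were, 0.166% as higher and 0.222% as lower. None reached an unadjusted p under 0.05 by edgeR, and DESeq2 and limma voom called 0 members as well. The members' log2 changes ran from -0.29 to 0.37 with a median of -0.01, against 0.02 over all genes. No member's insulin libraries were separated from its PBS libraries, while 3.2% of all genes were separated upward and 2.91% downward.

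The smallest p at 0.5 hpi belonged to rps6kb1a, at 20.2, 19.4, 17.4 and 21.3 CPM with insulin, against 19.2, 25.6, 24.7 and 26.6 CPM with PBS. PBS replicate 1, which stands apart, was the PBS library that overlapped the insulin range, and the change was -0.29 (SE 0.14, adjusted p = 0.393). The transcript of gsk3aa was at 31.3, 23.4, 26.6 and 25.8 CPM with insulin and at 30.0, 31.9, 30.0 and 30.3 CPM with PBS, a change of -0.19 (adjusted p = 0.452). Only insulin replicate 1 reached the PBS range for gsk3aa. The low pdpk1a was at 5.39, 6.61, 7.71 and 6.57 CPM with insulin, against 5.07, 3.36, 5.53 and 6.25 CPM with PBS, with a change of 0.37 (adjusted p = 0.483).

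Further members at 0.5 hpi had a larger adjusted p. The transcript of tsc1a was at 32.1, 30.6, 34.0 and 33.0 CPM with insulin and at 32.6, 24.0, 30.0 and 27.7 CPM with PBS (adjusted p = 0.494). That of rps6kb1b was at 52.6, 44.1, 60.6 and 61.0 CPM with insulin and at 59.2, 45.6, 42.5 and 41.9 CPM with PBS (adjusted p = 0.546). That of shc1 was at 80.0, 78.3, 77.9 and 73.5 CPM with insulin and at 75.5, 72.1, 65.0 and 70.1 CPM with PBS (adjusted p = 0.558). In rps6kb1b the libraries that stand apart were the lower ones with insulin and the highest one with PBS. The transcript of pik3cb was at 32.9, 35.6, 33.8 and 27.9 CPM with insulin and at 31.9, 28.9, 28.6 and 25.1 CPM with PBS (adjusted p = 0.573). That of tsc2 was at 39.0, 31.2, 33.4 and 31.6 CPM with insulin and at 37.9, 37.7, 35.7 and 38.1 CPM with PBS (adjusted p = 0.594). Insulin replicate 1 was the highest tsc2 library of both groups, and the other insulin libraries were below all PBS libraries.

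The count of 0 members at 0.5 hpi depended on the libraries that stand apart, 2 with insulin and 1 with PBS at this time. At 0.5 hpi the others were insulin replicates 3 and 4 and PBS replicates 2 to 4, and whether PBS replicates 2 and 3 are 1 library was not settled. Among the 12 other libraries 4 of 25 members were called, against 2844 genes in all, or 12.9% of those tested. These were rps6kb1b, higher with insulin at 0.47 (adjusted p = 0.00494), and pik3r3b at -0.38 (adjusted p = 0.00581), grb2b at -0.32 (adjusted p = 0.0274) and pik3r1 at -0.32 (adjusted p = 0.0377). In pik3r1 the insulin libraries were at 216, 268, 176 and 181 CPM, with the high values in replicates 1 and 2, which stand apart, against 212, 208, 212 and 241 CPM with PBS. A fit of all 16 libraries with a term for the split called 0 members.

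The effect of insulin at 4 hpi was set against its effect at 0.5 hpi by an interaction contrast. This difference was called for 4 of the 25 members (16%), against 9.59% of all genes. Of the 4, 2 had a more positive effect at 4 hpi (3.83% of all genes) and 2 a more negative one (5.76%). For rictora the difference was -0.91 (SE 0.19, adjusted p = 0.00430), with a change of -0.78 at 4 hpi and of 0.14 at 0.5 hpi. For pik3cb it was -0.82 (SE 0.18, adjusted p = 0.00627), with -0.64 at 4 hpi and 0.19 at 0.5 hpi. Both calls were kept in all 16 fits that left out 1 library and without the 4 libraries that stand apart.

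The positive differences were less stable. For akt2l the difference was 0.58 (SE 0.18, adjusted p = 0.0425), and for eif4ebp1 it was 0.47 (SE 0.13, adjusted p = 0.0285). Without the 4 libraries that stand apart it was 0.29 for akt2l (adjusted p = 0.223) and 0.34 for eif4ebp1 (adjusted p = 0.0676), and with library totals as the scaling neither was called. Leaving out 1 library ended the call of akt2l for insulin replicates 1, 2 and 3 and PBS replicates 1, 2 and 4 at 4 hpi and for insulin replicates 1 and 2 and PBS replicates 1 and 2 at 0.5 hpi, with adjusted p between 0.0506 and 0.0875. It ended that of eif4ebp1 for insulin replicates 2 and 4 and PBS replicates 1 and 4 at 4 hpi and for insulin replicate 1 and PBS replicate 3 at 0.5 hpi, with adjusted p between 0.0509 and 0.0628. The differences for rps6kb1a, at -0.60 (adjusted p = 0.0608), and tsc2, at 0.43 (adjusted p = 0.0659), missed the threshold with all libraries, and both calls depended on the fit. For tsc2 the difference was called without the 4 libraries, at 0.57 (adjusted p = 0.00908), and by DESeq2, at 0.44 (adjusted p = 0.0496). For rps6kb1a it was called with library totals, at -0.71 (adjusted p = 0.0374), and not without the 4 libraries, at -0.47 (adjusted p = 0.153). In all, 6 members were called for the difference when the 4 libraries were left out, against 13.1% of all genes. These were rictora, pik3cb and tsc2, with pik3r3b at 0.60 (adjusted p = 0.00106), grb2b at 0.50 (adjusted p = 0.00788) and pik3r3a at -0.58 (adjusted p = 0.0112).

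The PBS libraries themselves differed between the time points in several of the members called at 4 hpi. Among PBS libraries with a named lane, lane and time cannot be told apart. Between PBS at 4 hpi and PBS at 0.5 hpi 5 of 25 members were called (20%), 3 higher and 2 lower at 4 hpi, against 13.6% of all genes (7.96% higher, 5.65% lower). In 6 members these PBS groups did not overlap, 4 as higher and 2 as lower at 4 hpi, against 11.2% and 9.49% of all genes. This comparison uses the same PBS libraries as those above, so its values are given beside them and not as separate evidence. The transcript of rps6kb1a averaged 47.5 ± 6.62 CPM at 4 hpi and 24.0 ± 3.32 CPM at 0.5 hpi with PBS (SD, n = 4 each), a change of 0.98 (adjusted p = 0.000153). With insulin it averaged 25.4 ± 4.59 CPM at 4 hpi and 19.6 ± 1.64 CPM at 0.5 hpi, a change of 0.38 (adjusted p = 0.164). Thus the 4 PBS libraries at 4 hpi stood above the 12 other libraries in rps6kb1a.

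The same libraries stood highest in rictora and pik3cb. With PBS rictora averaged 21.1 ± 3.20 CPM at 4 hpi and 13.7 ± 1.70 CPM at 0.5 hpi, a change of 0.63 (adjusted p = 0.00323). With insulin it was at 11.7 to 12.8 CPM at 4 hpi and at 13.4, 14.6, 16.5 and 15.6 CPM at 0.5 hpi, with no overlap and a change of -0.28 (adjusted p = 0.285). The PBS libraries at 0.5 hpi were at 11.8, 12.8, 14.5 and 15.6 CPM, so the lowest PBS library at 4 hpi, at 16.8 CPM, was just above all libraries of the other groups. With PBS pik3cb averaged 44.7 ± 7.29 CPM at 4 hpi and 28.6 ± 2.77 CPM at 0.5 hpi, a change of 0.64 (adjusted p = 0.00214). With insulin it averaged 28.7 ± 3.22 CPM at 4 hpi and 32.6 ± 3.31 CPM at 0.5 hpi, a change of -0.18 (adjusted p = 0.510). These 3 calls with PBS were kept in all 16 fits that left out 1 library.

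The 2 members lower at 4 hpi in PBS embryos were eif4ebp1 and tsc2. With PBS eif4ebp1 averaged 60.3 ± 3.30 CPM at 4 hpi and 74.0 ± 7.98 CPM at 0.5 hpi, a change of -0.29 (adjusted p = 0.0402). With insulin it averaged 86.4 ± 2.27 CPM at 4 hpi and 76.7 ± 5.71 CPM at 0.5 hpi, which did not overlap but were not called (adjusted p = 0.358). At 0.5 hpi the insulin libraries were at 73.0, 70.9, 79.7 and 83.2 CPM and the PBS libraries at 83.4, 69.8, 77.4 and 65.4 CPM, so both averages at 0.5 hpi lay between the averages of the groups at 4 hpi. With PBS tsc2 averaged 30.0 ± 2.36 CPM at 4 hpi and 37.3 ± 1.13 CPM at 0.5 hpi, a change of -0.32 (adjusted p = 0.0451). Of the 16 fits that left out 1 library, the call of eif4ebp1 was kept in 5, those without insulin replicate 1 at 4 hpi or without insulin replicates 1, 2 or 3 or PBS replicate 4 at 0.5 hpi. That of tsc2 was kept in 3, those without insulin replicate 1 at 4 hpi or insulin replicates 1 or 2 at 0.5 hpi. Adjusted p in the other fits reached 0.132 for eif4ebp1 and 0.161 for tsc2, both without PBS replicate 1 at 4 hpi.

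In insulin embryos 1 of 25 members (4%) was called between 4 hpi and 0.5 hpi, against 2.92% of all genes (1.17% higher, 1.75% lower). In 5 members these insulin groups did not overlap, 3 as higher and 2 as lower at 4 hpi, against 4.38% and 5.69% of all genes. The member called was akt2l, at 44.1 ± 3.56 CPM at 4 hpi and 31.7 ± 5.25 CPM at 0.5 hpi (SD, n = 4 each), a change of 0.48 (SE 0.12, adjusted p = 0.0404). Its insulin libraries at 0.5 hpi were at 26.9, 27.5, 36.9 and 35.6 CPM, and replicates 1 and 2, which stand apart, were the low ones. The change of akt2l was 0.26 without the 4 libraries that stand apart (adjusted p = 0.223), and 8 of the 16 fits that left out 1 library lost the call. These left out any of insulin replicates 1 to 4 or PBS replicate 2 at 4 hpi, or insulin replicates 1 or 2 or PBS replicate 2 at 0.5 hpi, with adjusted p between 0.0552 and 0.149. With PBS akt2l was at 32.8 ± 3.34 CPM at 4 hpi and at 35.2 ± 4.56 CPM at 0.5 hpi (adjusted p = 0.622).

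Several members with the highest CPM in their role were called in no comparison. The transcript of akt2 was at 102, 78.8, 107 and 106 CPM with insulin at 0.5 hpi, against 106, 93.9, 91.4 and 86.1 CPM with PBS. That of gsk3ab was at 102, 76.4, 131 and 128 CPM with insulin and at 96.3, 109, 117 and 88.8 CPM with PBS. In both, insulin replicate 2, which stands apart, was the lowest insulin library at 0.5 hpi. The transcript of mtor was at 101, 102, 122 and 119 CPM with insulin at 0.5 hpi, against 121, 119, 117 and 113 CPM with PBS. The change of mtor between 4 hpi and 0.5 hpi was 0.15 with insulin (adjusted p = 0.448) and 0.00 with PBS (adjusted p = 0.990). The transcript of rhebl1 was at 42.8, 53.8, 41.1 and 42.6 CPM with insulin at 0.5 hpi, against 58.7, 39.4, 45.7 and 38.4 CPM with PBS. That of eif4ebp2 was at 220.2, 228, 194 and 216 CPM with insulin at 0.5 hpi, against 238, 222, 210.0 and 209 CPM with PBS. In all 3 groups with both kinds of library, those that stand apart were the higher ones for rhebl1, eif4ebp2 and pik3r3a and the lower ones for rheb and rictora. The other members were not separated in all 3 groups, and the share of all genes separated in this way was not counted. For eif4ebp2 at 4 hpi the margin was under the rounding, with insulin replicates 1 to 3 all at 205 CPM. The part of this split in the results above was not tested beyond the values without the libraries that stand apart.

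Rows under related symbols gave a reading of pik3ca, gsk3ba, gsk3bb and rptor, whose own spelling was not found, and no such row was found for akt1. By the gene name table the row PIK3CA (2 of 3) on chromosome 11 is pik3ca and the row GSK3B (2 of 2) on chromosome 1 is gsk3bb. The row gsk3b on chromosome 9 is gsk3ba by a RefSeq synonym, and the row RPTOR on chromosome 6 carries the missing symbol in capitals. The rows PIK3CA (1 of 3) on chromosome 23 and RICTOR (3 of 3) on chromosome 5 are further copies in name only.

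Among these rows 2 were called at 4 hpi, both lower with insulin, and they were chosen for this description after their values were seen. In all 7 related rows were found, and 28.6% of all genes were called in this comparison, 14.6% as lower. The count of 2 is thus no result about these rows. The row PIK3CA (1 of 3) was at 9.79, 4.87, 9.72 and 10.4 CPM with insulin, against 12.8, 17.9, 21.3 and 19.3 CPM with PBS, a change of -1.06 (SE 0.26, adjusted p = 0.00563). The row GSK3B (2 of 2) was at 3.49, 6.17, 6.13 and 5.10 CPM with insulin, against 8.64, 10.5, 7.92 and 7.61 CPM with PBS, a change of -0.73 (SE 0.24, adjusted p = 0.0285). In both rows every insulin library was below every PBS library. The other catalytic row, PIK3CA (2 of 3), was at 8.85, 8.12, 9.59 and 9.73 CPM with insulin, against 10.9, 11.7, 12.8 and 16.4 CPM with PBS, a change of -0.52 (adjusted p = 0.0599). The row RICTOR (3 of 3) held 1 to 8 reads per insulin library and 13 to 17 per PBS library, with a change of -1.21 (adjusted p = 0.0592). For gsk3b the change was 0.10 (adjusted p = 0.459).

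The raptor row was scattered. RPTOR encodes the subunit that defines mTORC1, and at 4 hpi it was at 37.0, 81.7, 67.8 and 50.8 CPM with insulin, against 122, 96.6, 83.8 and 101 CPM with PBS. The groups did not overlap, but the change of -0.76 (SE 0.31) had an adjusted p of 0.0782, and of 0.00529 without the libraries that stand apart, where it was -0.57. At 0.5 hpi RPTOR was at 139, 146, 57.6 and 57.0 CPM with insulin, against 98.0, 97.3, 95.7 and 96.5 CPM with PBS. Insulin replicates 1 and 2, which stand apart, were high and replicates 3 and 4 low, on either side of all PBS libraries. Without the libraries that stand apart RPTOR was called lower with insulin at 0.5 hpi, at -0.77 (adjusted p = 0.00772).

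Outside the core, 139 other genes of the pathway were taken from 7 lists by role. At 4 hpi 41 of them were called, 17 higher and 24 lower with insulin, which is 29.5% against the background of 28.6%, with a median log2 change of 0.01. All 41 were also called without the 4 libraries that stand apart, where the total was 53 of 139 and 35.2% of all genes were called. At 0.5 hpi edgeR called 1 gene, trib3 at -0.84 (adjusted p = 0.0488), a share of 0.719%. The call of trib3 was kept in 3 of the 16 fits that left out 1 library. DESeq2 with all libraries called trib3 and also sgk1 at -0.73 (adjusted p = 0.00997), pik3ip1 at -0.58 (adjusted p = 0.0227) and pdcd4b at -0.53 (adjusted p = 0.0247). Without the 4 libraries that stand apart 26 of the 139 genes were called at 0.5 hpi, against 12.9% of all genes. Among them were trib3, sgk1 at -1.27, pik3ip1 at -0.99 and pdcd4b at -0.69, all lower with insulin.

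Over all genes 28.6% were called at 4 hpi, 14% higher and 14.6% lower with insulin, and no list was tested as a set. Of 16 receptor and adaptor genes upstream of PI3-kinase 5 were called at 4 hpi, all lower with insulin. The other 11 were not called, 6 of the 16 had changes above 0, up to 0.23, and the list's median was -0.15. The second insulin receptor gene insra was at 0.16 (adjusted p = 0.275) and the docking protein gene irs4a at -0.13 (adjusted p = 0.550), neither called. The insulin receptor gene insrb averaged 38.6 ± 4.88 CPM with insulin and 61.2 ± 5.62 CPM with PBS (SD, n = 4 each), a change of -0.67 (adjusted p = 0.00675). The IGF receptor genes igf1rb and igf1ra were at -0.86 (adjusted p = 0.00197) and -0.96 (adjusted p = 0.00252). The docking protein gene irs2, which ties the receptor to PI3-kinase, averaged 26.5 ± 2.25 CPM with insulin and 47.4 ± 5.43 CPM with PBS, a change of -0.84 (adjusted p = 0.000357). Its relative irs1 was at -0.60 (adjusted p = 0.0109) and is named after its values were seen. Among 11 other PI3-kinase subunits and regulators pik3ip1, an inhibitor of the PI3-kinase catalytic subunit, was the gene called, at 47.4 ± 1.88 CPM with insulin and 103 ± 9.19 CPM with PBS, a change of -1.11 (adjusted p = 2.85e-05).

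The brakes on PI3-kinase and AKT moved both ways, with 4 of 22 higher and 4 lower and a median of -0.02. The shares of all genes were 14% higher and 14.6% lower. The pseudokinase genes trib1 and trib3, whose product TRB3 binds AKT in mammals, were at -1.76 (adjusted p = 2.83e-05) and -1.18 (adjusted p = 0.000150). The transcript of trib3 averaged 33.6 ± 1.38 CPM with insulin and 76.3 ± 11.3 CPM with PBS (SD, n = 4 each). That of trib1 was low with insulin, at 2.27 to 3.22 CPM. The gene ptpn1, for a phosphatase of the insulin receptor, was at -0.60 (adjusted p = 0.000151), and its relative ptpn2b was at 0.47 (adjusted p = 0.00304).

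Among the AKT and SGK family and AKT substrates 6 of 14 genes were lower and 1 was higher with insulin, with a median of -0.21. The shares of all genes were 14.6% lower and 14% higher. The SGK genes encode kinases close to AKT that also depend on PDK1. The transcript of sgk1 averaged 71.7 ± 4.90 CPM with insulin and 223 ± 31.2 CPM with PBS (SD, n = 4 each), a change of -1.64 (adjusted p = 5.27e-06), and sgk2b was at -1.61 (adjusted p = 2.23e-07). The FOXO genes encode transcription factors that AKT keeps out of the nucleus. Their transcripts were at -1.31 for foxo1a (adjusted p = 1.81e-05) and at -0.58 for foxo3b (adjusted p = 0.000591). Of the other FOXO genes on the list foxo1b was called lower, at -1.56 (adjusted p = 0.00322), and foxo3a was not called, at 0.14 (adjusted p = 0.364). The 1 gene called higher was not among the called genes of smallest p and is not named. Changes on the list reached 0.94.

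Of 9 partners of the mTOR complexes 0 were called at 4 hpi by edgeR, with 2 at an unadjusted p under 0.05 and a median of -0.09. Among the 34 genes that carry amino acid, energy and stress inputs to mTORC1, 3 were higher and 2 lower, with a median of 0.12. The shares of all genes were 14% higher and 14.6% lower. For the energy sensor AMPK the subunit genes called were prkab1a, a regulatory subunit gene at 0.56 (adjusted p = 0.00166), and prkaa2, a catalytic subunit gene at -1.22 (adjusted p = 0.00772). The other AMPK subunit genes tested were not called. The transcript of prkaa2 was low with PBS at 0.5 hpi, a group outside this comparison. There it was at 6.62 CPM in replicate 4 and at 2.02 to 2.59 CPM in the other replicates. Its levels at 4 hpi are not given here. The genes cab39l and cab39, for scaffolds of the kinase that activates AMPK, were at 0.32 (adjusted p = 0.0173) and 0.31 (adjusted p = 0.0309). The gene wdr59, for a subunit of the amino acid sensing complex GATOR2, was at -0.29 (adjusted p = 0.0339) and is named after its values were seen.

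The outputs of mTORC1 held 9 genes higher and 6 lower of 33 at 4 hpi, with a median of 0.18. The shares of all genes were 14% higher and 14.6% lower. The transcript of lpin1, a phosphatidate phosphatase that mTORC1 keeps out of the nucleus, averaged 25.0 ± 6.74 CPM with insulin and 112 ± 11.7 CPM with PBS (SD, n = 4 each), a change of -2.15 (adjusted p = 7.13e-07). That of srebf1, for a transcription factor of fat synthesis, was at -1.38 (adjusted p = 7.65e-05). The translation factor gene eif4ba was higher, at 36.9 ± 3.77 CPM with insulin and 20.9 ± 1.46 CPM with PBS, a change of 0.82 (adjusted p = 2.08e-05). The gene pdcd4b, for a translation inhibitor that S6 kinase marks for degradation, was also higher, at 0.90 (adjusted p = 8.88e-05). The higher transcripts included that of a factor that promotes translation and that of one that restrains it.

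**Figure D4:**
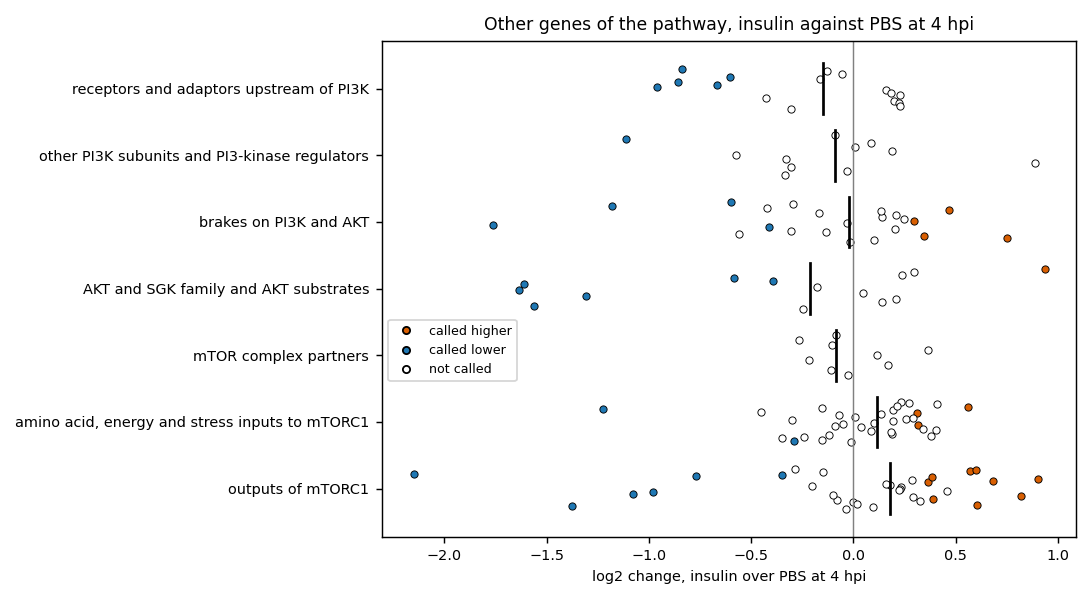
Log2 change of insulin over PBS at 4 hpi for 139 genes of the pathway outside the core, by list, with 1 point per gene, filled where called, and a vertical line at the median of each list. The 5 called receptor and adaptor genes all lie to the left of 0, and the point farthest to the left is lpin1, an mTORC1 output, at -2.15.

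Markers of cell types were read beside these values. At 4 hpi edgeR called 0 of 13 red blood cell markers (1 at an unadjusted p under 0.05), 4 of 21 photoreceptor and lens markers (all higher with insulin), 2 of 14 liver markers (1 higher, 1 lower) and 7 of 17 muscle markers (5 higher, 2 lower). It also called 5 of 11 skin markers (the 5 called all lower), 3 of 13 neuron markers (2 higher, 1 lower) and 4 of 13 neutrophil and macrophage markers (2 higher, 2 lower). Over all genes 28.6% were called in this comparison, 14% higher and 14.6% lower with insulin. Counting all tested markers, called or not, changes were above 0 in 4 of 11 skin (median -0.16), 12 of 14 liver (0.31) and 14 of 17 muscle markers (0.37). They were above 0 in 19 of 21 photoreceptor and lens (0.20), 9 of 13 red blood cell (0.13) and 5 of 13 neuron markers (-0.08). The summed level of the neutrophil and macrophage markers was 195 to 204 CPM with insulin at 4 hpi, against 326 to 559 CPM with PBS. By gene, 8 of these 13 markers had changes above 0, with a median of 0.17 and a range of -3.01 to 1.17, so the sum does not stand for the list. The summed muscle level was 45641 to 70407 CPM with insulin, against 48090 to 50687 CPM with PBS, and that of skin 9360 to 13398 CPM with insulin, against 10998 to 11870 CPM with PBS. No marker of these lists was at 0 in every library of a group. The part of these cell types in the changes of the pathway's transcripts was not tested.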

How the data were processed

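RNA sequencing was done on 16 pools of whole zebrafish embryos. The deposited values are raw counts of reads per gene, 1 table per library, made with the zebrafish genome build Zv9, per the submitters' processing notes. No label or header names the aligner, the counter or the strand setting, so reads of overlapping, antisense or near-identical genes may be shared. Of the rows under related symbols, 1 is not reported here. The last line of each table holds size factors and was not used.

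Counts were tested in R 4.3.3 with edgeR 4.0.16. All 16 libraries and 4 groups entered 1 model, after filterByExpr and TMM scaling, with glmQLFit (robust) and glmQLFTest, two-sided. This left 12 residual degrees of freedom and 21650 genes, over which p-values were adjusted by Benjamini-Hochberg, with calls under 0.05. Levels are CPM over TMM-scaled totals. The procedure was tested on simulated counts of independent libraries, none of them standing apart or near-identical to another. The changes simulated were larger than several of those called here, so that test does not cover these cases.

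PBS replicates 2 and 3 at 0.5 hpi would have been counted as 1 library under a chi-square per degree of freedom of 1.5 and were kept apart. Alternatives were other scalings and filters, DESeq2 1.42.0, limma voom 3.58.1, only the groups compared, a replicate block, that pair summed, each library left out, and the 4 libraries that stand apart left out or given a term. Fits within a lane were added after seeing the data.

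The members and lists were chosen with earlier results of these data known. Values in every library are given for members called in an insulin comparison or its difference, for the 8 members of smallest p at 0.5 hpi and for the member of highest CPM in each role. From each list the called genes of smallest p are named, at most 4 at 4 hpi and 2 at 0.5 hpi. The genes irs1, wdr59, foxo1b, foxo3a, insra and irs4a are named beyond this rule. CPM is not corrected for gene length, so CPM of different genes is no measure of their relative abundance.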

Additional observations from a re-analysis of the deposited data

Results flagged for a closer look

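Single libraries far from the other 3 of their group by Dixon's test at the 95% level were found in 16 of 224 groups of values, 5 of them among 104 groups of members. Chance gives about 1 in 20.

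Among the members, eif4ebp2 was at 199 CPM in insulin replicate 4 at 4 hpi, against 205 CPM in each of the other 3. The gene rheb was at 2.82 CPM in insulin replicate 1 at 4 hpi, against 4.94 to 5.20 CPM. The gene rhebl1 was at 53.8 CPM in insulin replicate 2 at 0.5 hpi, against 41.1 to 42.8 CPM. Among PBS libraries at 0.5 hpi, gsk3aa was at 31.9 CPM in replicate 2, against 30.0 to 30.3 CPM, and pik3r1 was at 241 CPM in replicate 4, against 208 to 212 CPM.

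Among related rows, PIK3CA (1 of 3) was at 4.87 CPM in insulin replicate 2 at 4 hpi, against 9.72 to 10.4 CPM. In PBS replicate 4 at 0.5 hpi PIK3CA (2 of 3) was at 10.3 CPM, against 6.05 to 6.54 CPM, and gsk3b was at 85.3 CPM, against 112 to 114 CPM. In PBS replicate 1 at 0.5 hpi GSK3B (2 of 2) was at 1.92 CPM, against 4.58 to 5.05 CPM.

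Among the list genes, trib1 was at 3.22 CPM in insulin replicate 1 at 4 hpi, against 2.27 to 2.40 CPM, and foxo3b at 239.8 CPM in PBS replicate 3 at 4 hpi, against 275 to 280.1 CPM. In PBS replicate 1 at 0.5 hpi sgk1 was at 141 CPM, against 206 to 212 CPM, pik3ip1 at 53.2 CPM, against 83.8 to 88.4 CPM, and pdcd4b at 32.8 CPM, against 55.1 to 58.0 CPM. In PBS replicate 4 at 0.5 hpi prkaa2 was at 6.62 CPM, against 2.02 to 2.59 CPM, and igf1ra at 55.0 CPM, against 25.9 to 30.4 CPM. PBS replicates 2 and 3 at 0.5 hpi are the pair of lowest median chi-square in that group.

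The effect of insulin differed between 4 hpi and 0.5 hpi, by the interaction contrast, in 4 members: rictora at -0.91, pik3cb at -0.82, akt2l at 0.58 and eif4ebp1 at 0.47 on the log2 scale. It also differed for PIK3CA (1 of 3) at -1.37. Among the named list genes the difference was negative for lpin1 at -2.20, sgk2b at -1.29, srebf1 at -1.29, trib1 at -1.25, foxo1a at -1.001, sgk1 at -0.93, foxo3b at -0.58 and wdr59 at -0.47. It was positive for pdcd4b at 1.41, eif4ba at 1.00 and prkab1a at 0.63. Without the 4 libraries that stand apart akt2l, eif4ebp1, PIK3CA (1 of 3), sgk1, foxo1a and foxo3b were not called.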

How the results depend on the processing

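At 4 hpi, of 13 alternatives, 12 kept the calls of rps6kb1a, rictora and eif4ebp1, and leaving out 1 library gave 6 to 10 members. Lane 5 alone gave 3, with fewer samples. The fit of libraries with no lane held 1 insulin and 1 PBS library at 4 hpi, so its spread came from the libraries at 0.5 hpi. Its counts are not given for comparisons that use a group at 4 hpi. At 0.5 hpi the count was 0 in all fits that left out 1 library and 4 without the 4 libraries that stand apart. For the difference between the effects it was 7 with a term for those libraries and 2 to 4 with 1 library left out. The fit with the term called 3448 genes in all, against 2076 in the main fit. Between the times with insulin it was 0 with only the groups compared, with the replicate block and without the 4 libraries, and 0 to 1 with 1 library left out. Between the times with PBS it was 3 with library totals, with no filter on low counts, with the replicate block and with PBS replicates 2 and 3 at 0.5 hpi summed. It was 8 without the 4 libraries, where 19.6% of all genes were called, and 3 to 5 with 1 library left out. RPTOR at 0.5 hpi was called at -0.77 without the 4 libraries (adjusted p = 0.00772), against 0.05 and no call with all. The cause of these changes was not tested. No member's call reversed in sign.

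Whether same-numbered insulin and PBS libraries belong together is not given in the labels. Their deviations correlated at -0.16 to 0.25, over 0.1 in 2 of 8 pairs, which does not settle it. The replicate block gave 8 members at 4 hpi, 0 at 0.5 hpi and 3 for the difference. With library totals 38.8% of called genes were higher at 4 hpi, against 49.0% with TMM, 71.6% at 0.5 hpi, against 42.9%, 22.8% for the difference, against 40.0%, and 75.3% between the times with PBS, against 58.5%. The median difference over all genes was then -0.10, against 0.01. Depth limits members such as rheb and pdpk1a, with under 80 reads per library.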
